A study of Mus musculus with 9 samples.

Results

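The subject is a set of 9 transcription factors that define striatal projection neurons, Bcl11b, Foxp1, Foxp2, Meis2, Isl1, Ebf1, Ikzf1, Ikzf2 and Six3, and their mRNA levels in the striatum of R6/2 mice against wild-type mice. The 9 genes were chosen by name, with earlier results of these data known. They are 9 of 18193 genes measured, and 37 of 45037 probe sets were assigned to them and to no other gene. A probe set is a group of short probes to 1 transcript, and each gene is represented by its probe set of highest mean over the arrays, called the main one. RNA from the striatum of 9 mice, all female and of C57Bl/6 and CBA strain background, was measured on 1 expression array per mouse. The R6/2 group held 5 mice, named after their animal numbers R62_86, R62_95, R62_105, R62_107 and R62_109, and the wild-type group held mice 46, 47, 49 and 66. All were 12 weeks old, with an age in days of 83 for R62_95, R62_105, R62_107 and R62_109 and of 85 for R62_86 and the 4 wild-type mice.

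R6/2 mice model Huntington disease through a transgene, the first exon of human huntingtin in which the CAG repeat is expanded, and fall ill within weeks. The transgene is expressed widely, not in 1 cell type, from human huntingtin promoter sequence, and it comes in addition to the mouse's own huntingtin alleles. Values are deposited log2 expression values, on which a difference of 1 is a doubling, and every difference is R6/2 minus wild-type. The lowest value in the table was 2.48, the highest was 14.6, and the median gene averaged 6.54 over the arrays. Array medians lay between 5.37 and 5.45.

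Projection neurons are the principal neurons of the striatum, use GABA, and divide into a direct pathway, whose cells carry the dopamine receptor Drd1, and an indirect pathway, whose cells carry Drd2. Bcl11b, Foxp1 and Meis2 are expressed across both pathways from the embryonic striatal anlage onward, and Foxp2 in many of the same cells. Isl1 and Ebf1 act in the development of direct pathway neurons, while Six3 and Ikzf1 act in that of indirect pathway neurons. Ikzf2 is a relative of Ikzf1 that is made in developing striatal neurons. None of the 9 is confined to these cells, since Bcl11b, Foxp1 and Foxp2 are also made in cortical neurons, Isl1 in cholinergic interneurons, Ebf1 in mural cells of vessels, and Ikzf1 in microglia and blood cells.

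Of the 9 factors, Bcl11b, Foxp1, Foxp2 and Meis2 fell in R6/2 striatum, Ikzf2 rose, and Isl1, Ebf1, Ikzf1 and Six3 did not pass the threshold of 0.05 on the adjusted p. The test was limma's moderated test with Benjamini-Hochberg adjustment over all 18193 genes. The 4 that fell compare with 7.57% of all genes called lower, and the 1 that rose with 9.28% called higher. The difference was negative for 8 of the 9, and its median was -0.28, against -0.02 over all genes. The 5 R6/2 mice lay wholly below the 4 wild-type mice for 3 of the 9 factors and wholly above them for 1, where 8.09% and 9.18% of all genes did so. The tissue is bulk striatum, in which fewer projection neurons and less of an mRNA per neuron cannot be told apart. Each array is 1 mouse by its label, and no other replicate information was given.

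**Figure D1:**
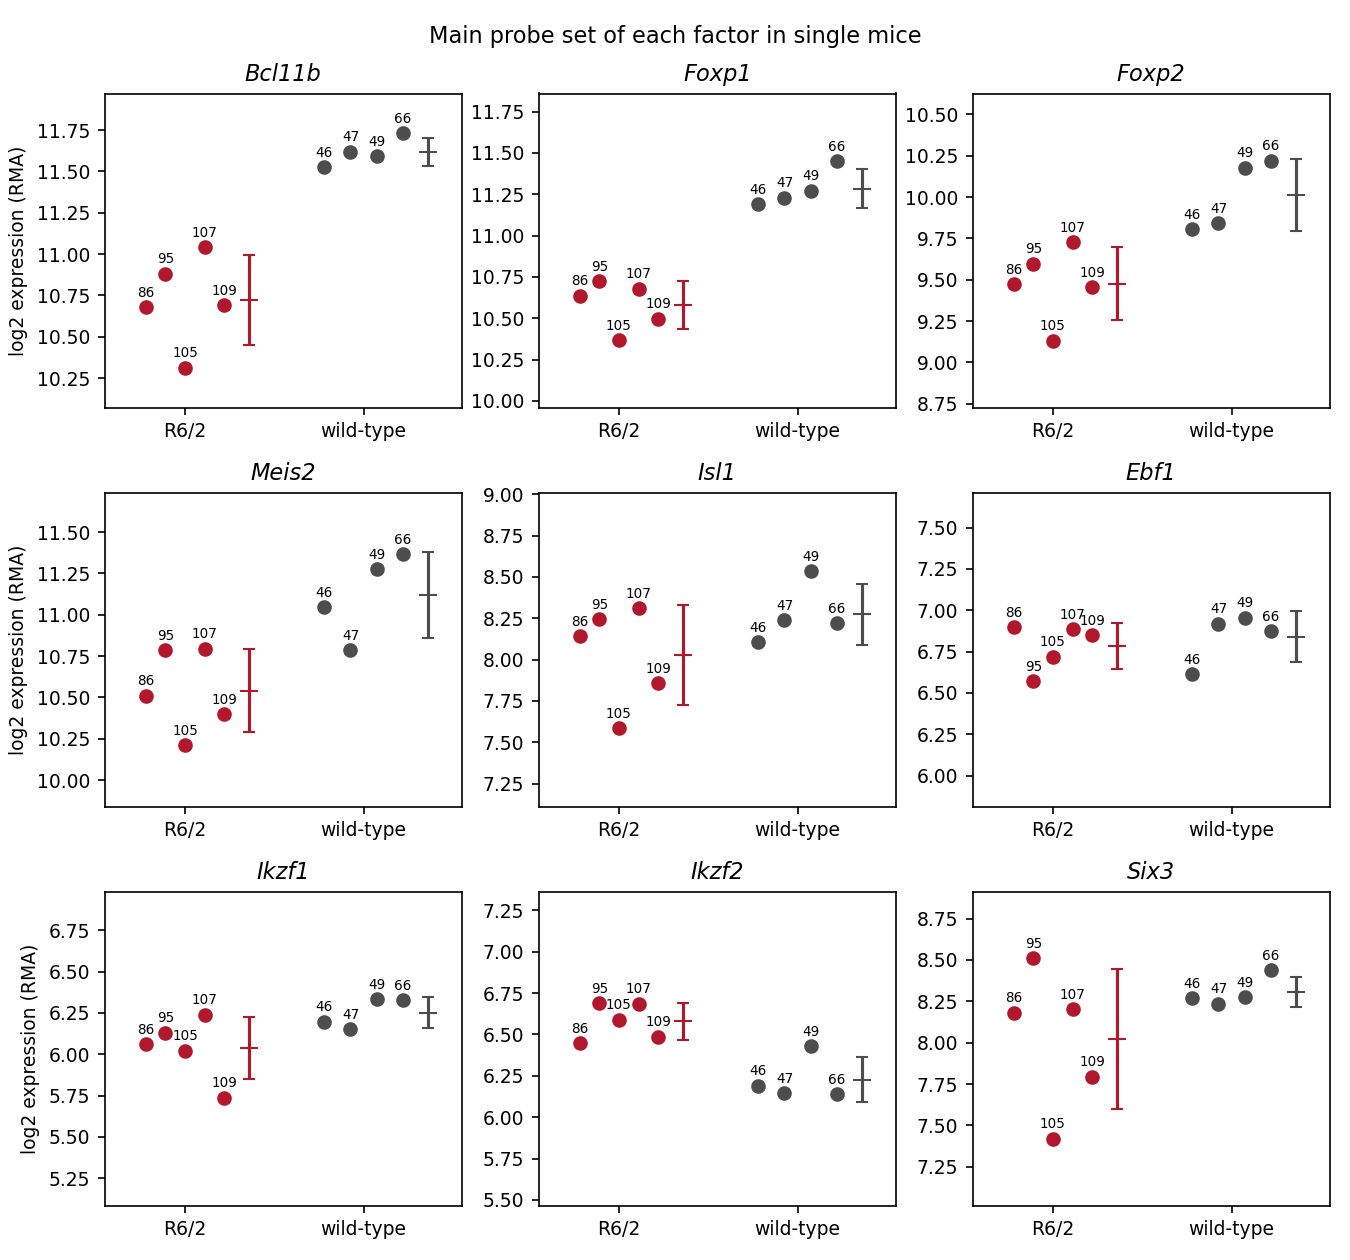
Log2 expression (RMA, vertical axis) of the main probe set of each of the 9 factors, with 1 point per mouse labelled by its number, R6/2 left and wild-type right, and the mean with its SD beside each group. Bcl11b, Foxp1 and Foxp2 show separate groups with R6/2 lower, Ikzf2 shows separate groups with R6/2 higher, and the groups overlap for the other 5. Each panel spans the same number of log2 units around its own level.

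The sequences below are promoters of the 3 factors that are shared by both pathways and that fell, shown because their transcripts moved the same way. Each runs 5′ to 3′ on the gene's strand, from 250 bases before to 50 after an annotated start, taken from RefSeq on GRCm38.p6. Capitals mark a match to a searched motif on either strand. The Bcl11b stretch is chr12:108003365-108003664 on the minus strand, the Foxp1 stretch is chr6:99266466-99266765 on the minus strand, and the Meis2 stretch is chr2:116064570-116064869 on the minus strand.
Bcl11b: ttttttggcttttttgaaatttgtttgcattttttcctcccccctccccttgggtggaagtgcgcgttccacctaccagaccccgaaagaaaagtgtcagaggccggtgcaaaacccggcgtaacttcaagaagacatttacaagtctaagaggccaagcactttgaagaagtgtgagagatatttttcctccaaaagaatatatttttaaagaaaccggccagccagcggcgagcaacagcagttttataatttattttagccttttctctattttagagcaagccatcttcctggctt
Foxp1: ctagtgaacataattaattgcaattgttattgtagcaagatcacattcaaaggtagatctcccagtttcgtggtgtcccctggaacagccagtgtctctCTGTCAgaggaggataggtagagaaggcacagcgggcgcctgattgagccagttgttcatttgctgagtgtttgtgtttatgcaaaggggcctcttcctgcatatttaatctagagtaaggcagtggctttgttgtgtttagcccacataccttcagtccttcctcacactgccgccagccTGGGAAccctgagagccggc
Meis2: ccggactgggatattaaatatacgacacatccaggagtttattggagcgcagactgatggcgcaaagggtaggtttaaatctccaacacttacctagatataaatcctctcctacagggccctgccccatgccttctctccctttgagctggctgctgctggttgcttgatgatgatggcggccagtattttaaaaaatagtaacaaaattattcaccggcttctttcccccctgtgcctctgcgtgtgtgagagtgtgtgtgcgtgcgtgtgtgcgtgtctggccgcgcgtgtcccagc

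Promoter entries matched 7 of the 9 factors, with 11 starts in all, and Foxp2 and Ikzf2 had none. Both strands were searched for a forkhead motif (TGTTTAC), a Meis motif (TGACAG), an Ikaros motif (TGGGAA), the Ebf palindrome, a Bcl11 motif (TGACCA), a cyclic AMP response element (TGACGTCA) and an Egr motif (GCGTGGGCG). The Foxp1 stretch above, 1 of 3 Foxp1 starts with an entry, is shown because it alone of the 3 held a match. It held 1 Meis match, read on the reverse strand as CTGTCA, and 1 Ikaros match. No searched motif was found in the Bcl11b and Meis2 stretches, which says only that these letters are not in these windows. Over the 11 starts, 2 held the Meis motif and 2 the Ikaros motif, which occur in 19.2% and 25.6% of 32851 promoters of the same length. The forkhead, Ebf, Bcl11, cyclic AMP and Egr motifs were in 0 of the 11, and in 3.65%, 0.904%, 13.6%, 1.79% and 0.612% of all promoters. The Foxp1 start holding both matches had 5 CpG dinucleotides and 48.7% G and C, and the other 2 Foxp1 starts had 13 and 60.3%, and 44 and 75.3%, while the Bcl11b window had 9 and 43%, and the Meis2 window had 13 and 51%.

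Bcl11b, also called Ctip2, is a zinc finger protein that is required in mice for projection neurons to mature and for the patch and matrix order of the striatum. The gene lies on chromosome 12 at 107910403 to 108004145 of GRCm38.p6. Its main probe set read 10.68, 10.88, 10.31, 11.04 and 10.69 in R62_86, R62_95, R62_105, R62_107 and R62_109, against 11.53, 11.62, 11.59 and 11.73 in wild-type mice 46, 47, 49 and 66. Every R6/2 mouse was below every wild-type mouse, with R62_105 lowest, and the R6/2 mice were the more spread out group. The means were 10.72 ± 0.27 in R6/2 (SD, n = 5) and 11.62 ± 0.09 in wild-type (SD, n = 4). The difference was -0.90 ± 0.13 (SE) with a 95% interval of -1.17 to -0.62 and an adjusted p in limma of 0.00114, so that the R6/2 level was 0.537 of the wild-type level. This was the largest fall among the 9 main probe sets.

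Bcl11b had 4 probe sets, and 3 of them fell when all 45037 probe sets were tested together. The differences of those 3 lay between -0.93 and -0.87. The remaining probe set, 1452966_at, differed by -0.45 ± 0.16 (SE) with an adjusted p in limma of 0.105, and its R6/2 range of 8.73 to 9.38 overlapped the wild-type range of 9.25 to 9.88. All 4 differences were negative.

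Foxp1 is a forkhead repressor made in projection neurons of both pathways. It lies on chromosome 6 at 98925342 to 99522746, where the annotation also places several non-coding entries within its span. Its main probe set read 10.63, 10.72, 10.37, 10.68 and 10.50 in R62_86, R62_95, R62_105, R62_107 and R62_109, against 11.19, 11.23, 11.27 and 11.45 in wild-type mice 46, 47, 49 and 66. The groups did not overlap, and R62_105 was again lowest. Foxp1 averaged 10.58 ± 0.15 in R6/2 and 11.28 ± 0.12 in wild-type (SD, n = 5 and 4). It fell by 0.70 ± 0.09 (SE), with a 95% interval of -0.90 to -0.51 and an adjusted p in limma of 0.000617, to 0.614 of the wild-type level.

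Of 8 Foxp1 probe sets, 6 fell, with differences between -0.99 and -0.63 and no overlap between the groups in any of the 6. The steepest, 1435221_at, read 8.55 to 8.98 in R6/2 and 9.71 to 9.87 in wild-type, a difference of -0.99 ± 0.08 (SE) with an adjusted p in limma of 0.000373. Probe set 1443258_at differed by -0.22 ± 0.18 (SE), and 1438802_at by -0.04 ± 0.31 (SE), the widest error of any of the 37. The groups overlapped for both.

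Meis2 is a homeodomain protein that binds DNA with Pbx partners and is made in striatal precursors and adult projection neurons. It lies on chromosome 2 at 115861264 to 116067537, and the non-coding gene G630016G05Rik overlaps one end of it. Its main probe set read 10.51, 10.78, 10.21, 10.79 and 10.40 in R62_86, R62_95, R62_105, R62_107 and R62_109, against 11.04, 10.78, 11.27 and 11.37 in wild-type mice 46, 47, 49 and 66. The groups met at R62_95 and R62_107 and wild-type mouse 47, and R62_105 was lowest. The difference was -0.58 ± 0.15 (SE), with a 95% interval of -0.90 to -0.25 and an adjusted p in limma of 0.0216, or 0.670 of the wild-type level.

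Among 4 Meis2 probe sets, 3 fell, and the 2 of them that are not the main one had groups that did not overlap, at -0.56 ± 0.11 and -0.50 ± 0.11 (SE). The last, 1440091_at, differed by -0.06 ± 0.19 (SE) with an adjusted p in limma of 0.879. The call for the main probe set was lost without wild-type mouse 66 (-0.49, adjusted p 0.0639), without wild-type mouse 49 (-0.53, adjusted p 0.0529) and without R62_109 (-0.54, adjusted p 0.0540), in limma in each case.

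Foxp2 is the forkhead gene whose loss impairs speech in humans, and in the mouse striatum it is made in projection neurons. It lies on chromosome 6 at 14901349 to 15441977, with the pseudogene Gm2845 within its span. Its main probe set read 9.47, 9.60, 9.13, 9.73 and 9.46 in R62_86, R62_95, R62_105, R62_107 and R62_109, against 9.81, 9.84, 10.18 and 10.22 in wild-type mice 46, 47, 49 and 66. The groups did not overlap, but R62_107 and wild-type mouse 46 were close. Foxp2 averaged 9.48 ± 0.22 in R6/2 and 10.01 ± 0.22 in wild-type (SD, n = 5 and 4), a difference of -0.53 ± 0.13 (SE) with a 95% interval of -0.82 to -0.25. The adjusted p in limma was 0.0170, the R6/2 level was 0.690 of the wild-type level, and without wild-type mouse 66 the difference was -0.46 with an adjusted p of 0.0525.

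All 6 Foxp2 probe sets had negative differences, and 3 fell, between -0.54 and -0.41. The groups overlapped slightly for 1422014_at (-0.41), with R6/2 reaching 7.32 and wild-type starting at 7.31. Probe set 1438231_at differed by -0.53 ± 0.16 (SE), as much as the main one, with an adjusted p in limma of 0.0660 and groups that did not overlap. The other 2 differed by -0.34 and -0.24 and overlapped. One of these, 1441365_at, read 3.04 to 3.79 in R6/2 and 3.55 to 3.82 in wild-type, at the dim end of the array.

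Isl1, a LIM homeodomain factor of direct pathway neurons and of cholinergic interneurons, lies on chromosome 13 at 116298270 to 116309688. It read 8.14, 8.24, 7.59, 8.31 and 7.86 in R62_86, R62_95, R62_105, R62_107 and R62_109, against 8.11, 8.24, 8.53 and 8.22 in wild-type mice 46, 47, 49 and 66. Within the R6/2 group, R62_105 and R62_109 lay below the wild-type range. The difference was -0.25 ± 0.15 (SE) with a 95% interval of -0.57 to 0.08 and an adjusted p in limma of 0.286, and the other Isl1 probe set differed by -0.18 ± 0.16 (SE). Of 6 cholinergic interneuron markers 3 fell, and their mean log2 value was 5.12 to 5.50 in R6/2 and 5.66 to 5.88 in wild-type. Among them were the choline transporter Slc5a7 (-1.01, at 4.44 in R6/2 and 5.45 in wild-type), the vesicular acetylcholine transporter Slc18a3 (-0.83) and the factor Lhx8 (-0.86), while Chat, the enzyme that makes acetylcholine, differed by 0.04 at a level of 4.08 in R6/2 and 4.04 in wild-type. Ache, the acetylcholinesterase, named after its value was seen, differed by 0.03 at a level of 8.07 in R6/2 and 8.04 in wild-type. Their part in the Isl1 value was not tested.

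Ebf1, a helix-loop-helix factor of the direct pathway, lies on chromosome 11 at 44618100 to 45008096. It read 6.90, 6.57, 6.72, 6.89 and 6.85 in R62_86, R62_95, R62_105, R62_107 and R62_109, against 6.62, 6.92, 6.95 and 6.87 in wild-type mice 46, 47, 49 and 66. The groups overlapped over almost their whole range. The difference was -0.06 ± 0.09 (SE) with a 95% interval of -0.26 to 0.15, so that differences of up to that size in either direction are not resolved, and the adjusted p in limma was 0.724. Its 5 probe sets differed by -0.27 to 0.14, and none passed in limma, although 1 of them, 1457441_at at the dim end, had an unadjusted p of 0.0130 (adjusted p 0.0888) and groups that did not overlap. Markers of endothelial and mural cells, which also make Ebf1, gave 0 of 13 past the threshold in limma, adjusted or unadjusted, and a mean log2 value of 7.21 to 7.52 in R6/2 and 7.07 to 7.50 in wild-type.

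Six3, a homeodomain factor needed in mice for indirect pathway neurons to form, lies on chromosome 17 at 85613608 to 85626191, where the non-coding gene Six3os1 overlaps it. Its main probe set read 8.18, 8.51, 7.42, 8.20 and 7.79 in R62_86, R62_95, R62_105, R62_107 and R62_109, against 8.27, 8.24, 8.28 and 8.44 in wild-type mice 46, 47, 49 and 66. The wild-type mice lay close together, while R62_95 was above every wild-type mouse, R62_86 and R62_107 just below the wild-type range, and R62_105 and R62_109 well below it. The difference was -0.28 ± 0.18 (SE) with a 95% interval of -0.69 to 0.12 and an adjusted p in limma of 0.321. The other 2 probe sets read between 3.28 and 3.77 in all 9 mice, the dim end of the array, so that they carry little about the gene.

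Ikzf1, or Ikaros, a zinc finger factor that acts in mice in the formation of enkephalin neurons of the indirect pathway and in blood cells, lies on chromosome 11 at 11684962 to 11772930, and the non-coding gene Gm11999 overlaps one end of it. It read 6.06, 6.13, 6.02, 6.24 and 5.74 in R62_86, R62_95, R62_105, R62_107 and R62_109, against 6.20, 6.15, 6.33 and 6.33 in wild-type mice 46, 47, 49 and 66. R62_107 alone reached into the wild-type range. The difference was -0.21 ± 0.10 (SE), with an unadjusted p of 0.0486 and an adjusted p in limma of 0.158, and its other probe set differed by -0.19 ± 0.11 (SE). Of 15 microglia markers 5 fell, with a median difference of -0.51 and a mean log2 value of 7.40 to 7.83 in R6/2 and 7.84 to 8.34 in wild-type. Among them were P2ry13 (-0.73), Trem2 (-0.50) and Cd68 (-0.57). Laptm5, a lysosomal membrane protein, differed by 0.10 (adjusted p in limma 0.559), and Ctss, a lysosomal protease named after its value was seen, by 0.07. The part of these markers in the Ikzf1 value was not tested.

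Ikzf2, or Helios, is the member of the same zinc finger family that rose. It lies on chromosome 1 at 69531207 to 69687351. Its main probe set read 6.45, 6.69, 6.59, 6.69 and 6.49 in R62_86, R62_95, R62_105, R62_107 and R62_109, against 6.19, 6.15, 6.43 and 6.14 in wild-type mice 46, 47, 49 and 66. Every R6/2 mouse was above every wild-type mouse, although R62_86 and wild-type mouse 49 were close. Ikzf2 averaged 6.58 ± 0.11 in R6/2 and 6.23 ± 0.14 in wild-type (SD, n = 5 and 4), a difference of 0.35 ± 0.08 (SE) with a 95% interval of 0.17 to 0.54. The adjusted p in limma was 0.0152, and the R6/2 level was 1.28 times the wild-type level.

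The brighter of the other Ikzf2 probe sets, 1456956_at, read 5.38, 5.60, 5.35, 5.72 and 5.25 in R62_86, R62_95, R62_105, R62_107 and R62_109, against 4.84, 4.85, 5.00 and 4.67 in wild-type mice 46, 47, 49 and 66. It too separated the groups, with a rise of 0.62 ± 0.11 (SE) and an adjusted p in limma of 0.00599. Its wild-type values lay below the array medians of 5.37 to 5.45, as did those of R62_105 and R62_109, while R62_86 lay within them. The last probe set, 1421643_at, stayed between 3.56 and 3.85 in all mice and differed by -0.07. The main probe set's call did not hold when arrays were centred on housekeeping genes (0.25, adjusted p in limma 0.173), a scaling that lowered the median of all genes by 0.108.

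Over all 37 probe sets of the 9 factors, 15 fell and 2 rose, where 4.57% and 5.83% of all probe sets did so in limma. The difference was negative for 32 of the 37. The groups did not overlap for 15 with R6/2 lower and for 2 with R6/2 higher, where 6.01% and 7.4% of all probe sets did so. Probe sets of 1 gene share its transcripts and are not independent of each other. The main probe sets of the 5 factors that passed over genes also passed in this test over probe sets.

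**Figure D2:**
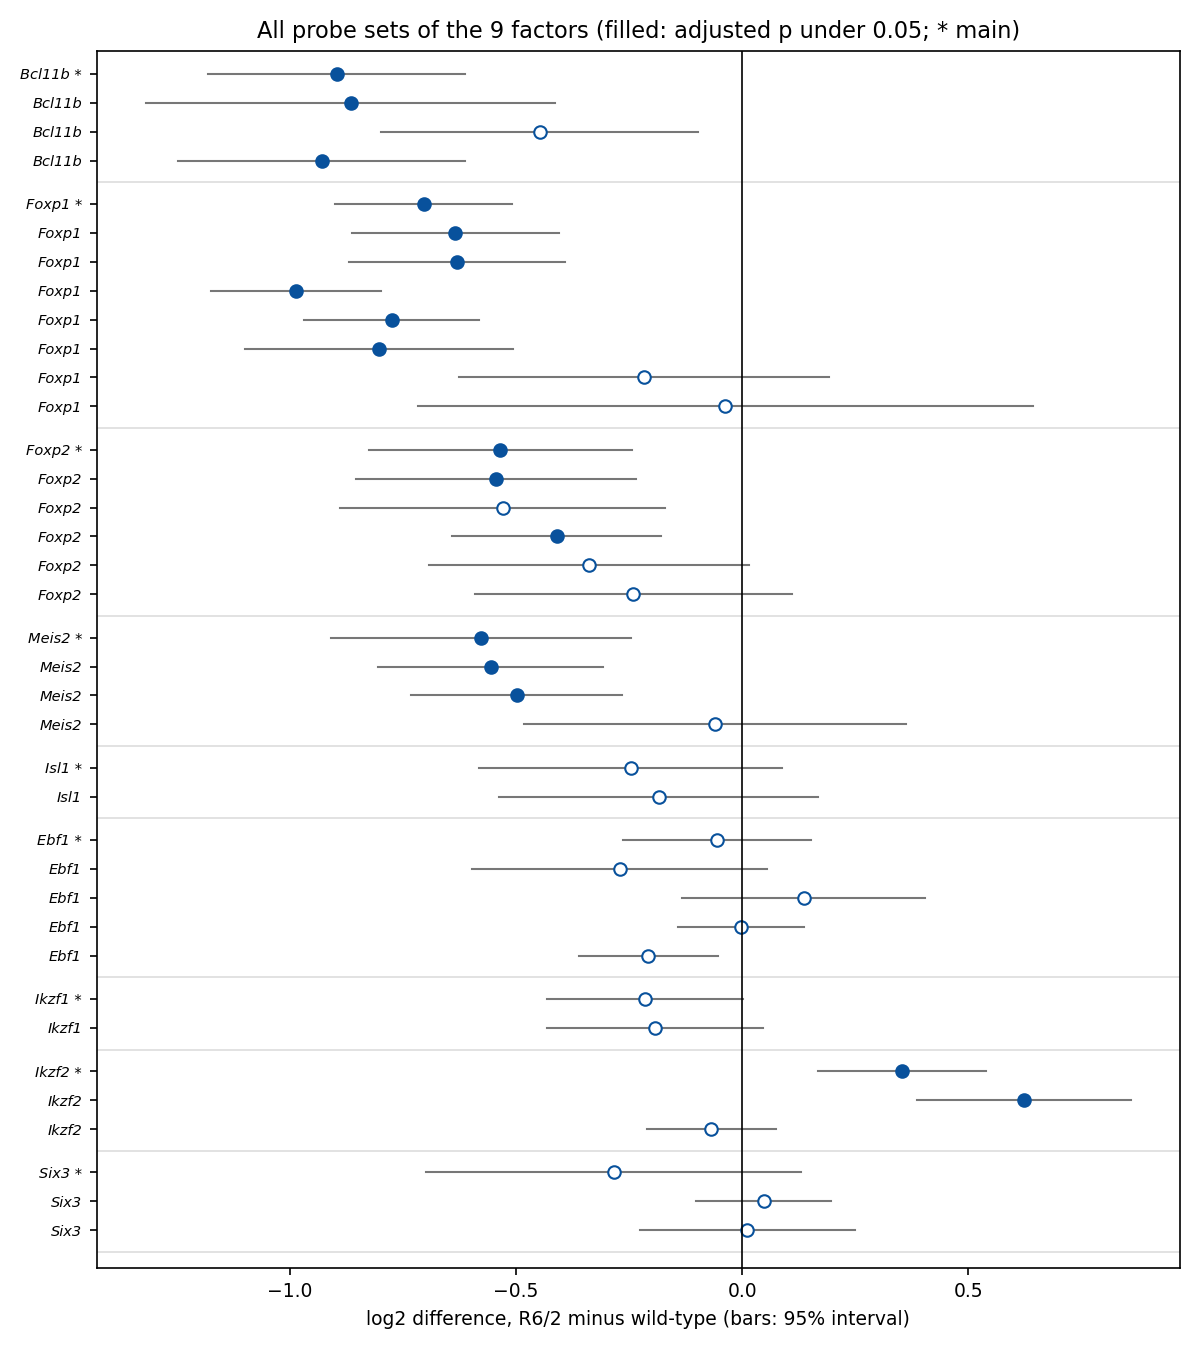
Log2 difference, R6/2 minus wild-type (horizontal axis), of all 37 probe sets of the 9 factors, 1 line per probe set, grouped by gene with the main probe set starred. Bars are 95% intervals of the fit over 45037 probe sets, and filled points have an adjusted p under 0.05: 15 lie below 0 and 2, both of Ikzf2, above it.

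Each of the shared factors was then set beside a close relative, and the difference of the pair was formed within each array and tested, two-sided, by exact permutation of the genotypes over all 126 splits of the arrays, with adjustment over 4 pairs. The smallest p such a test can give is 0.00794. The pairs were chosen with earlier results of the data known, so their p-values are not independent evidence. Bcl11a, the paralogue of Bcl11b, read 9.11, 9.20, 9.12, 9.17 and 9.27 in R62_86, R62_95, R62_105, R62_107 and R62_109, against 9.09, 9.01, 8.66 and 9.01 in wild-type mice 46, 47, 49 and 66. Its groups did not overlap and it differed by 0.23 ± 0.09 (SE), in the direction opposite to Bcl11b, without passing in limma (adjusted p 0.0971). The change of Bcl11b minus that of Bcl11a was -1.13, lower in 5 of 5 R6/2 mice than in any wild-type mouse (exact permutation p = 0.00794, adjusted 0.0106). Both genes had separate groups, in opposite directions, so their difference had to reach this smallest p. The test therefore adds nothing to the values of the single genes.

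Meis1, the paralogue of Meis2, differed by 0.18 ± 0.12 (SE) with an adjusted p in limma of 0.356 and overlapping groups. The change of Meis2 minus that of Meis1 was -0.76 (exact permutation p = 0.00794, adjusted 0.0106). For Ikzf1 minus Ikzf2 it was -0.57 with the same exact permutation p and adjusted p, so these Ikaros family members moved apart within the arrays. Foxp1 minus Foxp2 differed by -0.17 (exact permutation p = 0.103, adjusted 0.103), and the pair was not shown to differ in the size of its fall.

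Other members of the same families mostly did not pass, which is also the case for all genes. Of 23 relatives measured, from the gene families of the 9 factors and the Pbx and Lhx genes, 2 rose, 2 fell and 19 did not pass, with a median difference of -0.07. Over all genes 9.28% were called higher and 7.57% lower, so the counts of relatives are near these shares. The same shares stand beside the counts of the other gene lists. Ikzf5, another zinc finger protein of the Ikaros family, rose by 0.50 ± 0.08 (SE, adjusted p in limma 0.00269), and Foxp4, a forkhead relative of Foxp1 and Foxp2 named after its value was seen, rose by 0.52 ± 0.15 (SE, adjusted p 0.0388). Pbx4, of the family that partners Meis proteins, differed by -0.36 ± 0.08 (SE, adjusted p 0.0118), but at a level of 4.06 in R6/2 and 4.42 in wild-type. Lhx2, a LIM homeodomain relative of Isl1, fell by 0.40 ± 0.12 (SE, adjusted p 0.0366). Foxp4 did not pass with centring on housekeeping genes (0.41, adjusted p in limma 0.103), when the mean level of cortex markers described further on was a covariate (0.197), or when the 3 choroid-rich arrays were left out (0.0788). Pbx4 and Lhx2 did not pass in those last 2 fits either, with adjusted p in limma of 0.0752 and 0.139 for Pbx4 and of 0.304 and 0.199 for Lhx2. Ikzf5 passed in all 3 fits.

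Among 18 further factors of the striatal lineage, 6 fell and 2 rose, with a median difference of -0.25. The retinoid receptors Rarb (-1.26 ± 0.16 SE, adjusted p in limma 0.000720) and Rxrg (-1.45 ± 0.20 SE, adjusted p 0.000958) and the activity-regulated factor Egr3 (-1.08 ± 0.13 SE, adjusted p 0.000638) fell by more than 1 log2 unit. Rarb averaged 8.93 ± 0.37 in R6/2 and 10.19 ± 0.06 in wild-type, and Rxrg 8.69 ± 0.40 in R6/2 and 10.14 ± 0.28 in wild-type (SD, n = 5 and 4). Mef2c, a factor made in cortical and striatal neurons, rose by 0.51 ± 0.14 (SE, adjusted p 0.0290), and with the level of cortex markers as a covariate its difference was 0.12 (adjusted p 0.570).

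Proteins with which these factors act were measured through 20 cofactor and corepressor genes, of which 4 rose, 2 fell and 14 did not pass, with a median difference of 0.10. Hdac1, a histone deacetylase of the NuRD complex that Bcl11 and Ikaros proteins recruit, rose by 0.48 ± 0.08 (SE, adjusted p in limma 0.00286). Ctbp2, a corepressor, rose by 0.42 ± 0.08 (SE, adjusted p 0.00440), and Tle1, a Groucho corepressor that Six3 can bind, fell by 0.57 ± 0.09 (SE, adjusted p 0.00278). With arrays centred on housekeeping genes, 2 of these cofactors fell in limma and none of the 4 rises passed (adjusted p 0.0518 to 0.243), although their differences stayed positive. When the level of cortex markers was a covariate, only Hdac1 of the 20 passed (adjusted p in limma 0.0297), and Ctbp2 (0.0549) and Tle1 (0.0937) did not. Without the choroid-rich arrays, Ctbp2 (0.0312) and Tle1 (0.0299) passed in limma and Hdac1 (0.0887) did not.

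Other transcripts of projection neurons were set beside the factors, and as bulk mRNA they do not measure the number of these cells. Of 22 shared projection neuron markers, 20 fell, and their median difference was -1.19. Their mean log2 value, here the marker score, was 9.47 to 10.21 in R6/2 and 11.07 to 11.38 in wild-type, above the median gene's 6.54 in both groups. Among them Arpp21, a phosphoprotein regulated by cyclic AMP, differed by -1.27, the potassium channel Kcnj4 by -0.82 and the sodium channel subunit Scn4b by -2.71. These markers were listed with earlier results of the data known, so their direction is not independent evidence.

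Each factor was set beside the marker score within the same array, as a description with no test, since the markers were listed with their fall known. The fall of Bcl11b was 0.32 log2 units smaller than that of the score, and the falls of Foxp1, Foxp2 and Meis2 were smaller by 0.51, 0.68 and 0.64. The gaps were 0.97 for Isl1, 1.16 for Ebf1, 0.999 for Ikzf1, 0.93 for Six3 and 1.57 for Ikzf2, which moved the opposite way. Ebf1, Ikzf1 and Ikzf2 averaged 6.78, 6.04 and 6.58 in R6/2, near the median gene's 6.54 and far below the score. The part of signal level in the gaps was not tested.

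Direct pathway markers fell in 5 of 7 cases, with a median of -0.54, and beside Isl1 at -0.25 and Ebf1 at -0.06 the receptor Drd1 differed by -1.45 ± 0.16 (SE), the transporter Slc35d3 by -1.30 and the opioid precursor Pdyn by -1.24. Drd1, Slc35d3 and Pdyn had the smallest p of the list. The others fell less, with Chrm4 at -0.54, Sfxn1 at -0.38 and Tac1 at -0.30 (adjusted p in limma 0.163), named after their values were seen. Eya1 went the other way at 0.12. Indirect pathway markers fell in 4 of 5 cases, with a median of -1.58, and beside Six3 at -0.28 and Ikzf1 at -0.21 the enkephalin precursor Penk differed by -1.88 ± 0.16 (SE), the receptor Gpr6 by -1.67 and Drd2 by -1.58. The glutamate receptor Grik3 differed by 0.12 (adjusted p in limma 0.669). The 2 pathway lists were not tested against each other.

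**Figure D3:**
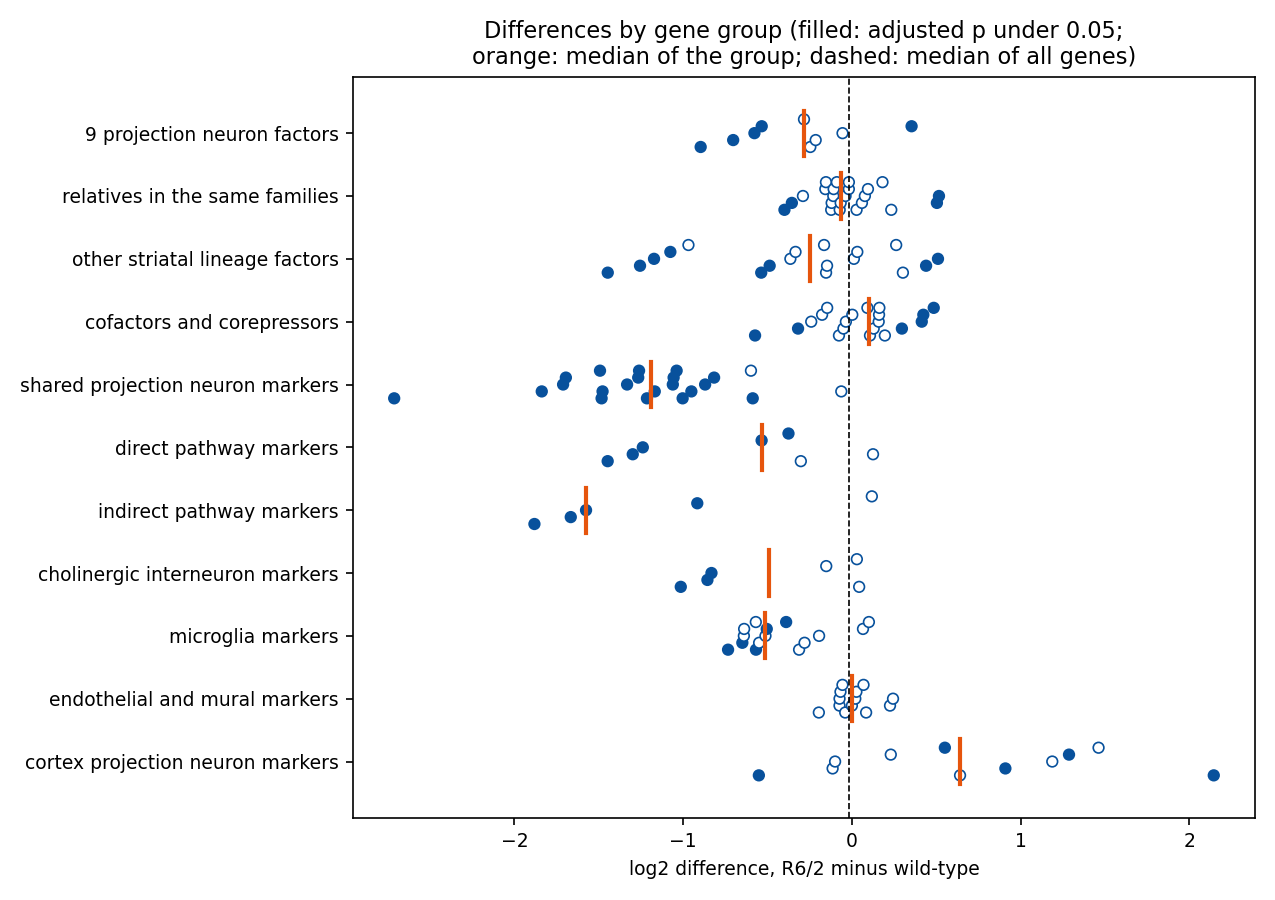
Log2 difference, R6/2 minus wild-type (horizontal axis), with 1 point per gene for the 9 factors and for 10 other gene groups (vertical axis). Filled points have an adjusted p under 0.05, orange bars are group medians, and the dashed line is the median of all genes. The 9 factors centre on -0.28, between their family relatives at -0.07 and the shared projection neuron markers at -1.19.

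Within the R6/2 group the same mice were at the extremes for most factors. R62_105 had the lowest value of the 5 for Bcl11b, Foxp1, Foxp2, Meis2, Isl1 and Six3, 6 of the 9, and R62_107 the highest for 5. Among wild-type mice, mouse 66 was highest for 5 factors, Bcl11b, Foxp1, Foxp2, Meis2 and Six3, and mouse 46 lowest for 5. R62_105 also had the lowest marker score, 9.47, and R62_107 the highest of the R6/2 group, 10.21. The same counts were not made over all genes, so they are not shown to be particular to these factors.

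Markers of cortical projection neurons ran the other way. Of 11, 4 rose and 1 fell, the median difference was 0.64, and their mean log2 value was 7.44, 7.14, 7.73, 6.85 and 7.61 in R62_86, R62_95, R62_105, R62_107 and R62_109, against 7.18, 6.89, 6.40 and 6.17 in wild-type mice 46, 47, 49 and 66. The cortical factors Neurod2 (0.91) and Fezf2 (0.55) rose, and Lamp5, a membrane protein of upper cortical layers, differed by -0.55. The cortex marker mean was highest in R62_105, where 6 of the 9 factors were lowest, and lowest in wild-type mouse 66, where 5 were highest. With this cortex score as a covariate, Bcl11b (-0.62, adjusted p in limma 0.0362) and Foxp1 (-0.51, adjusted p 0.0206) still passed. Foxp2 (-0.18, adjusted p 0.359), Meis2 (-0.20, adjusted p 0.450) and Ikzf2 (0.45, adjusted p 0.0639) then did not. Genotype and cortex score overlap in these 9 mice, and the part of cortex tissue in the values was not tested beyond this fit.

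**Figure D4:**
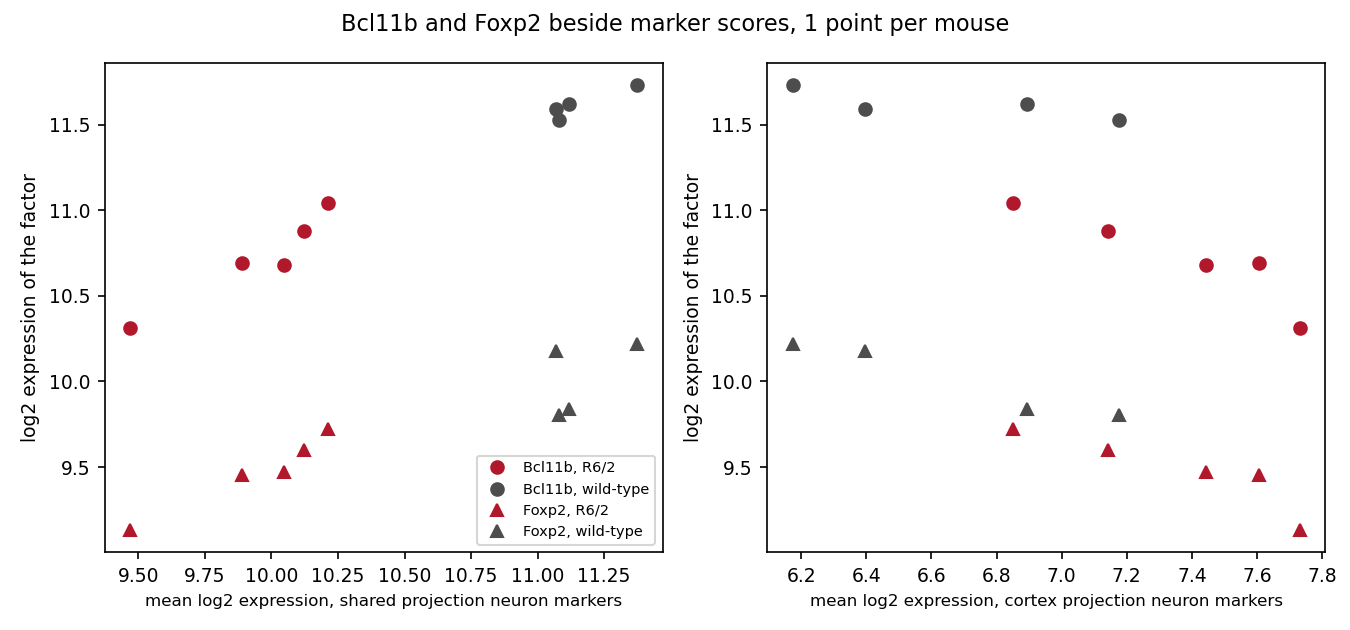
Log2 expression of Bcl11b (circles) and Foxp2 (triangles) in each mouse (vertical axis) beside the mean log2 value of the shared projection neuron markers (left, horizontal axis) and of the cortex projection neuron markers (right, horizontal axis), with R6/2 in red and wild-type in grey. Both factors are lowest in the R6/2 mouse with a marker score of 9.47 and a cortex score of 7.73. R62_95 and wild-type mouse 46 (cortex scores 7.14 and 7.18) read 10.88 and 11.53 for Bcl11b, and 9.60 and 9.81 for Foxp2. R62_107 and wild-type mouse 47 (6.85 and 6.89) read 11.04 and 11.62 for Bcl11b, and 9.73 and 9.84 for Foxp2. These are single mice, and the part of cortex tissue was not tested here.

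Choroid plexus and ependyma markers, 9 measured, were high in a few mice of both genotypes. Their mean log2 value was 5.06, 5.84, 5.28, 6.69 and 5.67 in R62_86, R62_95, R62_105, R62_107 and R62_109, against 5.52, 8.01, 5.58 and 8.16 in wild-type mice 46, 47, 49 and 66. None of the 9 passed in limma, and 2 had an unadjusted p under 0.05. Without the 3 richest arrays (R62_107 and wild-type mice 47 and 66), Bcl11b (-0.92, adjusted p in limma 0.0228) and Foxp1 (-0.67, adjusted p 0.0255) passed. Meis2 (-0.68, adjusted p 0.0558) and Foxp2 (-0.58, adjusted p 0.0800) had larger differences than with all arrays but did not pass with 6 arrays, and Ikzf2 was 0.24 (adjusted p 0.236).

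Age differed by 2 days between 4 of the R6/2 mice and all the others, and only R62_86 shared the wild-type age. With age as a covariate none of the 9 factors passed in limma, 4 had an unadjusted p under 0.05, and the differences of Bcl11b (-0.94), Foxp1 (-0.65), Foxp2 (-0.54) and Meis2 (-0.61) were close to those without it. Ikzf2 differed by 0.22 with age (adjusted p in limma 0.518), against 0.35 without it. In that fit the genotype rests on the comparison of R62_86 with the wild-type mice, and 30 genes of 18193 were called.

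**Figure D5:**
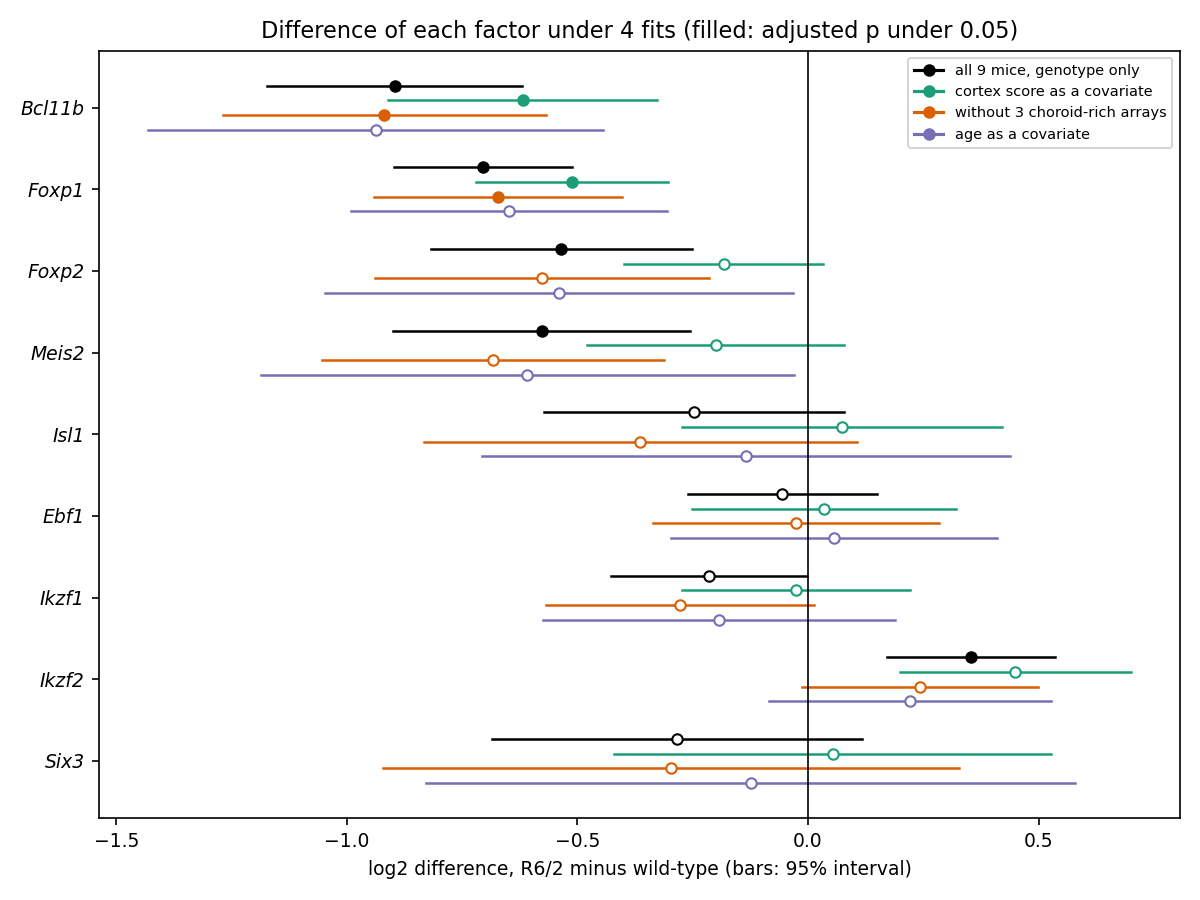
Log2 difference, R6/2 minus wild-type (horizontal axis), of the 9 factors (vertical axis) in 4 fits: all 9 mice with genotype only, the cortex score as a covariate, without the 3 choroid-rich arrays, and age as a covariate. Bars are 95% intervals and filled points have an adjusted p under 0.05, which Bcl11b and Foxp1 have in the first 3 fits, and Foxp2, Meis2 and Ikzf2 in the first only.

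Other cell types were measured through their markers, and their part in the factors' values was not tested. Astrocyte markers fell in 7 of 12 cases (median -0.34), GABA interneuron markers in 3 of 11 (median -0.28) and oligodendrocyte markers in 3 of 11 (median -0.09). With the cortex score as a covariate, 0 genes of these lists passed, and 0 of the microglia and cholinergic interneuron lists. Without the choroid-rich arrays, 2 astrocyte, 0 GABA interneuron and 1 oligodendrocyte markers fell. In the cortex fit 15 shared, 1 direct pathway and 3 indirect pathway projection neuron markers fell. Septum and pallidum markers gave 1 rise and 1 fall of 6, Trpc4 and Gbx1. Neither thalamus and midbrain markers nor blood and lymphocyte markers had a gene past the threshold in limma, with 1 of 8 and 3 of 6 at an unadjusted p under 0.05. Of 5 housekeeping genes measured, Hprt rose by 0.30.

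For each factor that passed, the genes of most similar course over the 9 arrays were found by the mean absolute gap between values centred on their own mean, among 9090 genes at or above the median level. Nearest to Bcl11b were Tdrp (gap 0.0674 log2 units) and Lrtm2 (0.0738), against a median gap of 0.473 over all genes compared. Nearest to Foxp1 were Ttyh1 (0.0304) and Rgs7bp (0.0507), where Rgs7bp anchors regulators of G protein signalling. Ap1s2 (0.0609) and Ric8b (0.0649) lay nearest to Foxp2, and Cplx2 (0.0776), a synaptic complexin, and Pard3 (0.0857), a cell polarity protein, nearest to Meis2. Lbr (0.0361), the lamin B receptor of the inner nuclear membrane, and Poglut2 (0.0432) ran closest to Ikzf2. Likeness over 9 arrays in 2 groups is a description of these mice, since genes with a similar difference between genotypes are near each other by construction.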

How the data were processed

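The deposited table held log2 expression values of 45101 probe sets in 9 arrays, for which the submitters' processing notes name RMA and the affy package. Their versions, and whether all arrays went through 1 run, were not given in the sources used here. RMA gives the arrays a shared distribution, so each difference is relative to the other transcripts of an array, and values near its lower end understate differences. Gene names came from the platform annotation, where 34945 probe sets have exactly 1 gene and 932 have several. The annotation's gene identifiers were matched to RefSeq on GRCm38.p6 for positions, with 34741 matches. Probe set positions along transcripts were not used here. After removal of 64 manufacturer controls, 45037 probe sets remained, and each of 18193 genes was represented by its probe set of highest mean over the arrays, without a filter on low values.

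The R6/2 and wild-type groups were compared, two-sided, by lmFit and eBayes of limma 3.58.1 in R 4.3.3 and p-values were adjusted by Benjamini-Hochberg over every gene or, for single probe sets, over every probe set, and figures were drawn with matplotlib 3.10.9. The fit was tested on simulated data. Pairs of genes were compared within arrays by exact permutation tests, and factors were set beside the marker score without a test. Array correlations over all probe sets lay between 0.979 and 0.996 and at most 3.93% of values were identical in a pair of arrays, so every array was taken as a replicate of its own, and the number of arrays limits the precision. The 9 factors, the 18 gene lists (208 of 228 entries measured) and the tests were chosen with earlier results of these data known. Named genes were the 9 factors, Bcl11a and Meis1, up to 3 genes with the smallest p in each list with the 1 gene of smallest p against the list's median, and the 2 genes of most similar course for each factor past the threshold. Alternatives changed normalization, centring, variance moderation, array weights, probe set choice, dim genes, threshold, covariates and arrays.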

Additional observations from a re-analysis of the deposited data

Results flagged for a closer look

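Of 118 groups of 4 or 5 mice examined for 1 mouse far from the others of its genotype, 8 had such a mouse, and chance gives about 1 in 20. Among the factors' probe sets, R62_105 read 5.61 for Ebf1 probe set 1448293_at, where the other R6/2 mice read 6.18 to 6.26. R62_95 read 4.85 for Ikzf1 probe set 1421303_at, where the other R6/2 mice read 5.27 to 5.36. For Ikzf2 probe set 1421643_at, wild-type mouse 47 read 3.85 and the other wild-type mice 3.76 to 3.77, and for Six3 probe set 1426638_at, wild-type mouse 66 read 3.38 and the others 3.58 to 3.59, both at the dim end of the arrays. None of these 4 is the main probe set of its gene.

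Mean log2 values of gene lists gave the other 4. The shared projection neuron marker score was 11.38 in wild-type mouse 66, where the other wild-type mice had 11.07 to 11.12. R62_95 had 8.68 for the cofactors and corepressors, above the 8.61 to 8.62 of the other R6/2 mice, and 10.98 for the housekeeping genes, below their 11.15 to 11.19. Thalamus and midbrain markers averaged 6.33 in R62_109 and 5.68 to 5.84 in the other R6/2 mice.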

How the results depend on the processing

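The count of genes past the threshold, 3066 with all arrays, was 2006 without variance moderation, 526 with the cortex score as a covariate, 30 with age as a covariate, 882 without the 3 choroid-rich arrays and 1257 at a threshold of 0.01, and 2183 to 2984 when each mouse was left out in turn. Of the 9 factors, where 5 passed, 3 passed without moderation, 2 with the cortex score, 0 with age (4 at an unadjusted p under 0.05), 2 without the choroid-rich arrays, 2 at the stricter threshold, and 3 to 5 with 1 mouse left out. Of their 37 probe sets, where 17 passed, 10 passed without moderation, 4 with the cortex score, and 11 to 17 with 1 mouse left out, the lowest without wild-type mouse 66. Without moderation Foxp2 (adjusted p in limma 0.0630) and Meis2 (0.0763) lost their calls. Bcl11b and Foxp1 kept direction and call in 19 of 20 alternatives each, the exception being age, with differences of -1.004 to -0.62 and -0.81 to -0.51. Foxp2 lost its call in 5 of 20, Meis2 in 7 of 20 and Ikzf2 in 4 of 19, and none of the 3 changed sign. Signs changed only for uncalled factors: Isl1 was 0.0733, Ebf1 0.0340 and Six3 0.0539 with the cortex score, and Ebf1 was 0.0015 with array weights and 0.0564 with age. The causes were not tested. Centring on housekeeping genes gave 508 higher and 1633 lower genes, 23.73% higher against 55.06% as deposited, and 4 factors past the threshold. The filter on dim genes left out Ikzf1 and Ikzf2. The 3 pairs of relatives that passed had the smallest p that the number of arrays allows, and groups that do not overlap keep that when a mouse is left out, so their passing there says nothing on stability. No paired analysis was made because the labels give no pairing of R6/2 with wild-type mice.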
